A study of Mus musculus with 2 samples.

Results

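The imprinted growth genes are 10 of the 32285 genes listed in the count matrices: Peg10, Peg3, Igf2, H19, Dlk1, Meg3, Cdkn1c, Mest, Plagl1 and Grb10. They were taken by gene symbol, a rule that uses no measured value, though the list was chosen with earlier results of these data known. Each symbol matched 1 row. The matrices come from single-cell RNA-seq (10x Chromium, 3′ chemistry) of hepatic endothelial cells, isolated from mouse liver by collagenase perfusion, a density gradient and magnetic selection for the endothelial antigen CD146. One library came from Maf LSEC-KO mice, which carry the Clec4g-iCre transgene and Maf fl/fl alleles and so lose the transcription factor c-Maf in liver sinusoidal endothelial cells (LSECs). The other came from control littermates, labelled WT, that lack the transgene; the study's methods give their Maf alleles as fl/fl or fl/wt. Clec4g-iCre is active mainly in LSECs and starts before birth; when each cell of the knockout (KO) library lost Maf was not measured. Each library pooled liver tissue from 3 mice. The methods give mice aged 3 and 6 months of both sexes for the study as a whole and do not state which of them entered these libraries.

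With 1 library per condition there is no replicate, so no difference below has a test or a p-value. Every interval in square brackets is an exact 95% interval for counting error only: Poisson for a level, conditional binomial for a ratio, and Clopper-Pearson for a share of cells. The unique molecular identifier (UMI) count of a gene was summed over the cells of a class and divided by the class total outside mitochondrial and ribosomal protein genes, giving CPM (counts per 1000000). A gene was called higher or lower at a ratio of at least 2-fold, among genes with at least 50 UMIs pooled over the 2 classes compared. Levels are compared between classes for 1 gene and not between genes.

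Imprinted genes are read from only 1 of the 2 parental copies, as set by DNA methylation laid down in the germ line. Many act on fetal growth and placental development and are switched down together in organs after birth. Igf2 is the paternally expressed growth factor of the family, and H19 is the maternally expressed non-coding RNA next to it that shares its control region. Dlk1 (paternal), a Notch-related transmembrane protein, and Meg3 (maternal), a long non-coding RNA, form another such pair. Cdkn1c, maternally expressed, inhibits cyclin-dependent kinases, and Grb10, maternal in most tissues, encodes an adaptor that restrains insulin and IGF receptor signalling. Mest (hydrolase fold), Peg10 (a gag-like protein derived from a retrotransposon), Peg3 and Plagl1 (both zinc finger proteins) are read from the paternal copy. The counts do not separate the parental copies, so which copy was read is not measured here.

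On GRCm38, the mouse build that 10x calls mm10, the members lie on 5 chromosomes. Peg10 (chr6:4747306-4760517) and Mest (chr6:30723547-30748465), both on the plus strand, share chromosome 6 but lie 25963.0 kb apart. H19 (chr7:142575529-142578143) ends 72.6 kb before Igf2 (chr7:142650766-142666816), and Cdkn1c (chr7:143458339-143461050) starts 791.5 kb beyond Igf2, all on the minus strand of chromosome 7. Peg3 (chr7:6703892-6730431) is on the same chromosome and strand at the other end. Dlk1 (chr12:109452823-109463336) and Meg3 (chr12:109541001-109571726) are 77.7 kb apart on the plus strand, Plagl1 is at chr10:13060504-13131694 on the plus strand, and Grb10 at chr11:11930508-12038683 on the minus strand.

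Of the members, 4 host microRNAs, which are cut out of the same primary transcript. The arms hosted by the 3 genes that were higher in the KO library are shown because their hosts carry the differences described below. They are from RefSeq (GRCm38.p6), 5′ to 3′, with the seed, bases 2 to 8, in capitals. miR-335 lies in an intron of all 7 Mest transcripts that span it, with the 5p arm at chr6:30741314-30741336. miR-675 lies in an exon of 3 of the 4 H19 transcripts that span it, with the 5p arm at chr7:142577112-142577133. miR-483 lies in an intron of all 7 Igf2 transcripts that span it, with the 5p arm at chr7:142654968-142654989.
miR-335-5p: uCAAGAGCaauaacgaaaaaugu
miR-335-3p: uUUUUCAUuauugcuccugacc
miR-675-5p: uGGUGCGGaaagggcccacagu
miR-675-3p: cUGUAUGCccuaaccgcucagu
miR-483-5p: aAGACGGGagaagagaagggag
miR-483-3p: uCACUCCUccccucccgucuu
With the arms of miR-770 and miR-1906, hosted by Meg3, the members carry 9 mature arms with 9 distinct seeds, and none of these seeds occurs in any other of the 1679 mature miRNAs of the table. The miRNAs themselves were not measured, since the libraries capture polyadenylated RNA.

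Promoter windows of 300 bases, from 250 before to 50 after a RefSeq start, were found for 7 of the 10 members, 14 windows in all. The sequence TGCTGA, searched on both strands, the core of the element that Maf proteins bind, was present in 2 of the 14 windows, against 19.5% of 32851 mouse promoters. It lay in an Igf2 window (chr7:142657447-142657746, minus strand) and at an alternative Meg3 start (chr12:109545148-109545447, plus strand). The AP-1-like element TGACTCA, which neither contains nor lies within TGCTGA, was found on either strand in 0 of the 14, against 5.20% of all promoters. The Igf2 window is shown because Igf2 is the growth factor of the family, with the match in capitals on the printed strand. The Mest window (chr6:30737800-30738099, plus strand) is shown because Mest has the most UMIs of the members, with its 17 CpG dinucleotides in capitals; the median promoter has 7.
Igf2: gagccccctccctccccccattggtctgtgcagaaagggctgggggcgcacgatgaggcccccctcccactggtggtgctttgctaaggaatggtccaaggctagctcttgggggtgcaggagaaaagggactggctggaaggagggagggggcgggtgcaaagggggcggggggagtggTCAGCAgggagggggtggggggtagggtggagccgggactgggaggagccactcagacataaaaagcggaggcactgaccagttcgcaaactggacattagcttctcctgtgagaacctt
Mest: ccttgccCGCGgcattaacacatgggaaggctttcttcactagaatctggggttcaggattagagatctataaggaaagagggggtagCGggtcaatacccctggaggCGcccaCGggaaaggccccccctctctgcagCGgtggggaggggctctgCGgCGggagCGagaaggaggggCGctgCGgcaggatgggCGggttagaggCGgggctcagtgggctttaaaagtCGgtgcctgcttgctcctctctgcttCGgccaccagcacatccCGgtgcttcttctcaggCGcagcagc
A match of letters in such a window is a description and not a binding site.

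The control library held 5664 barcodes with 47681895 UMIs, of which 4961 passed the limits of 1500 UMIs and 750 genes, and the KO library 7091 barcodes with 89872764 UMIs, of which 5423 passed. They share 10 barcodes. Endothelial-like cells without a UMI of Vwf, a marker of large-vessel endothelium, are called LSECs here, and LSECs with UMIs of at least 3 of 12 cell cycle genes are called cycling. This gave 3998 non-cycling and 83 cycling LSECs in the control library and 2476 and 742 in the KO library. The cycling share was 2.03% [1.62 to 2.52] and 23.1% [21.6 to 24.6]. Cycling is a range on a count, not a type: in the KO library 158 LSECs lie on the limit and 372 1 gene below it. Vwf had a UMI in 25.0%, 16.6% and 21.8% of the cells in the largest KO clusters, led by Astn1, Hbb-bs and Hist1h2ap. In the largest control clusters, led by Flrt1 and Gm17167, the shares were 0.494% and 1.45%. The LSEC class is thus set by Vwf UMIs and not by vessel type. Each of the 14 endothelial markers was detected in the LSECs of both libraries, at a sum of 23080 CPM in control and 14083 CPM in KO non-cycling LSECs. Maf itself, the deleted gene, was at 3524 CPM in control and 171 CPM in KO non-cycling LSECs, a log2 difference of -4.37. Depth differed with the groups, with a median of 8337 UMIs per control and 12333 per KO non-cycling LSEC.

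The deposited counts were not corrected for empty droplets, so free RNA can add UMIs to any cell. Maf had a UMI in 55.1% of the 78 control lymphocyte-like cells, at 1851 CPM; some T and NK cells express Maf themselves, and how much of this is free RNA was not tested. Lymphocyte-like cells are used below as the background of each member in each library, at a median of 7284 UMIs per cell in control and 5857 in KO. For shares of cells, each cell was also thinned to 2700 UMIs and shallower cells were left out. In control, Mest (56.6 CPM), Cdkn1c (51.8 CPM) and Grb10 (45.3 CPM) had lymphocyte-like levels not far below their LSEC levels, so their control LSEC levels stand little above that background. Other classes of the control library were lower, with macrophage-like cells at 37.9 CPM of Mest, 22.6 CPM of Cdkn1c and 18.6 CPM of Grb10, and neutrophil/monocyte-like cells at 0 Mest UMIs in 41 cells, so the background is not the same in every class.

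In non-cycling LSECs, the main comparison here, 4 members were higher in the KO library, Mest, Peg10, Igf2 and H19, and 2 were lower, Cdkn1c and Peg3. Plagl1 and Grb10 stayed within 2-fold, and Dlk1 and Meg3 had too few UMIs to be compared. Of 8 members compared, 4 were thus higher, against 10.8% of 12328 genes, and 2 lower, against 5.33%. H19, Igf2 and Peg3 reached the 50 UMIs through the library in which they were higher, so these counts describe the members and are no support for a direction; the same holds for genes of few UMIs in the comparisons below. The median log2 ratio was 1.10 over these 8 members and 0.12 over all genes compared. With UMIs of all genes as the scale, the shares over all genes became 8.60% and 7.17%, the median of all genes moved by -0.18, and the 8 members kept their calls. By parental copy, the paternally expressed members included 3 higher (Mest, Peg10, Igf2) and 1 lower (Peg3), and the maternally expressed ones 1 higher (H19) and 1 lower (Cdkn1c).

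**Figure D1:**
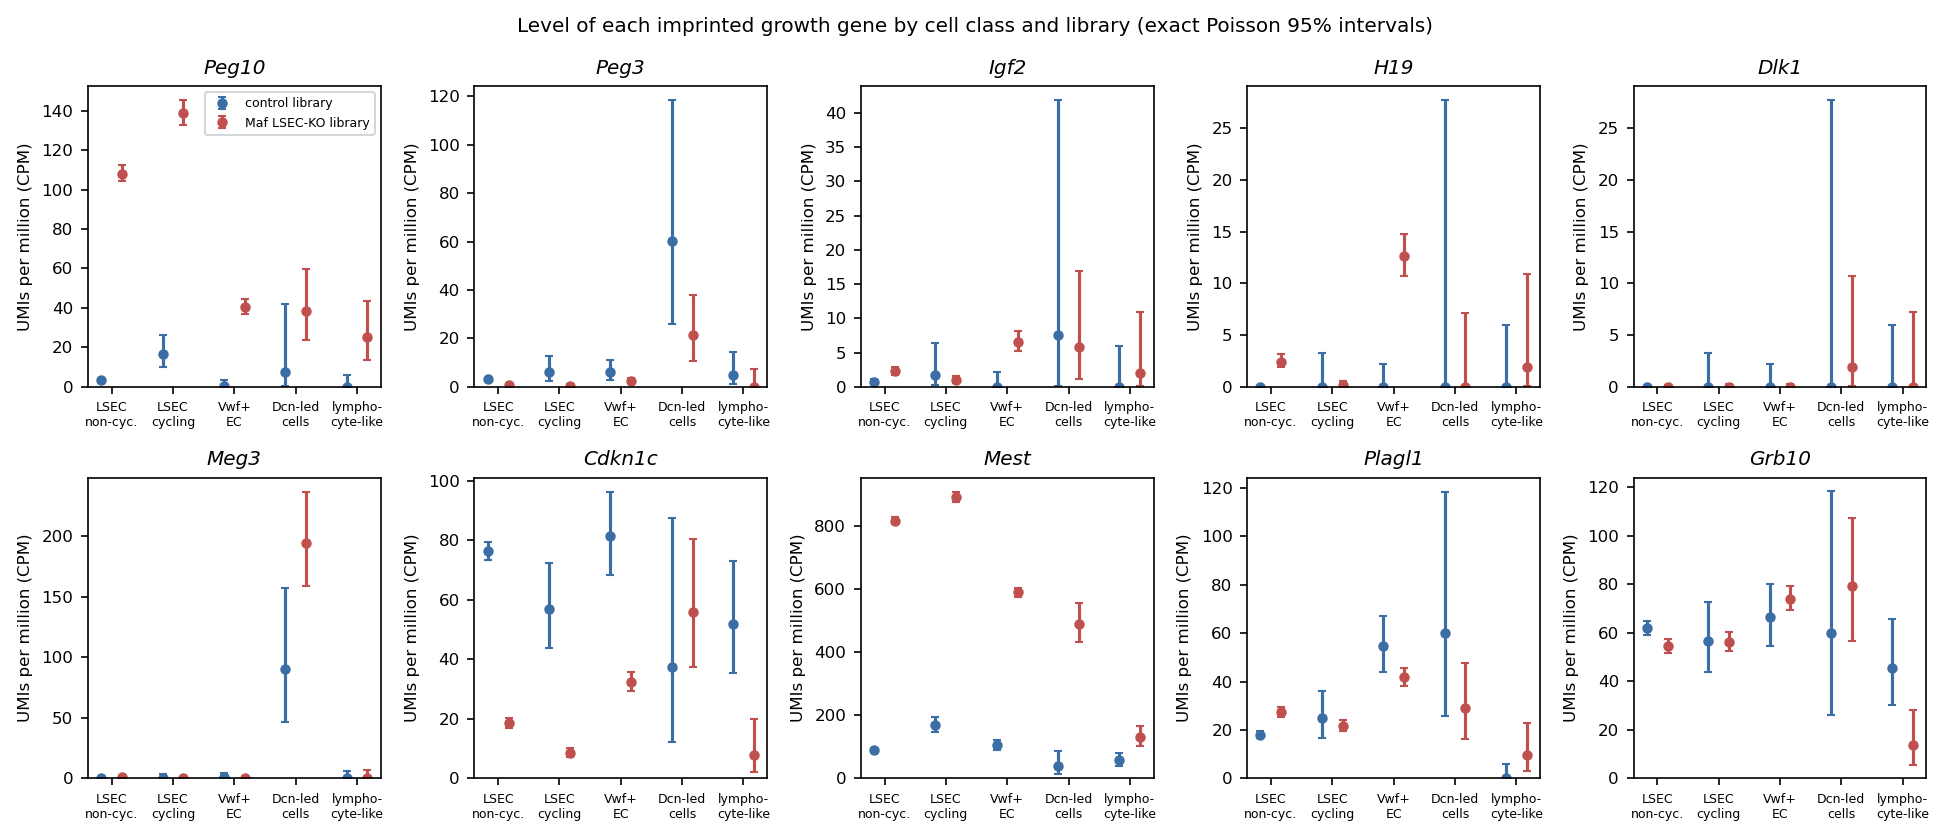
Level of each member (CPM, linear axis from 0, 1 panel per gene) in non-cycling and cycling LSECs, Vwf-positive non-cycling endothelial cells, Dcn-led and lymphocyte-like cells of the control (blue) and KO (red) library, with points for the summed UMIs and bars for the exact Poisson 95% interval. In non-cycling LSECs Mest is at 91.3 CPM in control and 817 in KO, and Peg10 at 3.45 and 108, while Meg3 reaches 195 CPM in the Dcn-led KO cells.

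**Figure D2:**
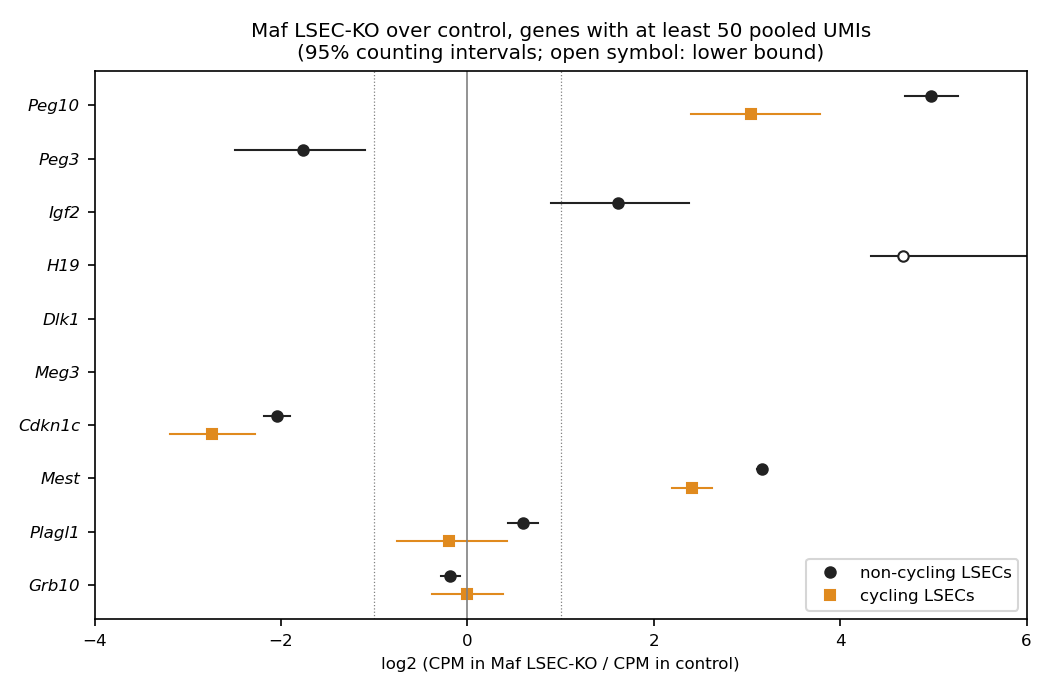
Log2 ratio of each member, KO over control, in non-cycling (black circles) and cycling (orange squares) LSECs, with bars for the 95% interval of counting error, dotted lines at 2-fold, and no symbol for members under 50 pooled UMIs. Mest and Peg10 lie to the right of the limit and Cdkn1c to the left in both classes; the open symbol of H19 is the ratio to a floor of 3 control UMIs, and its bar runs past the axis.

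Mest had 2855 UMIs, or 91.3 CPM [87.9 to 94.7], in control non-cycling LSECs and 21054 UMIs, or 817 CPM [806 to 828], in KO. This is 8.95-fold [8.61 to 9.31]. It had a UMI in 36.1% of control and 85.3% of KO cells, and after thinning in 16.8% and 65.2%. The background shares in lymphocyte-like cells were 16.7% and 24.2%, or 5.63% and 13.7% after thinning. The LSEC shares lay above the background in both libraries, and the gap was wider in the KO library. The difference was spread over many cells: 14.7% of KO cells had 0 Mest UMIs against 63.9% of control cells, and 18.3% of KO cells but no control cell had 16 or more.

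Peg10 was near the lower end of detection in control LSECs, with 108 UMIs over 3998 cells, or 3.45 CPM [2.83 to 4.17]. In KO it had 2786 UMIs, or 108 CPM [104 to 112], 31.3-fold [25.8 to 38.3]. This ratio is higher than that of 99.5% of the genes compared. A UMI was found in 2.0% of control and 32.5% of KO cells, and after thinning in 0.723% and 13.2%. The lymphocyte-like shares were 0% of 78 cells, which allows up to 3.85%, and 4.04%. Its UMIs were spread over many cells: of the 805 KO cells with Peg10, the richest 139 held 50% of its UMIs, and no cell held more than 34. Among KO LSECs thinned to equal depth, Peg10 was found in 9.07% [7.18 to 11.3] of cells without Mest and in 17.9% [14.8 to 21.4] of cells with 3 or more Mest UMIs.

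**Figure D3:**
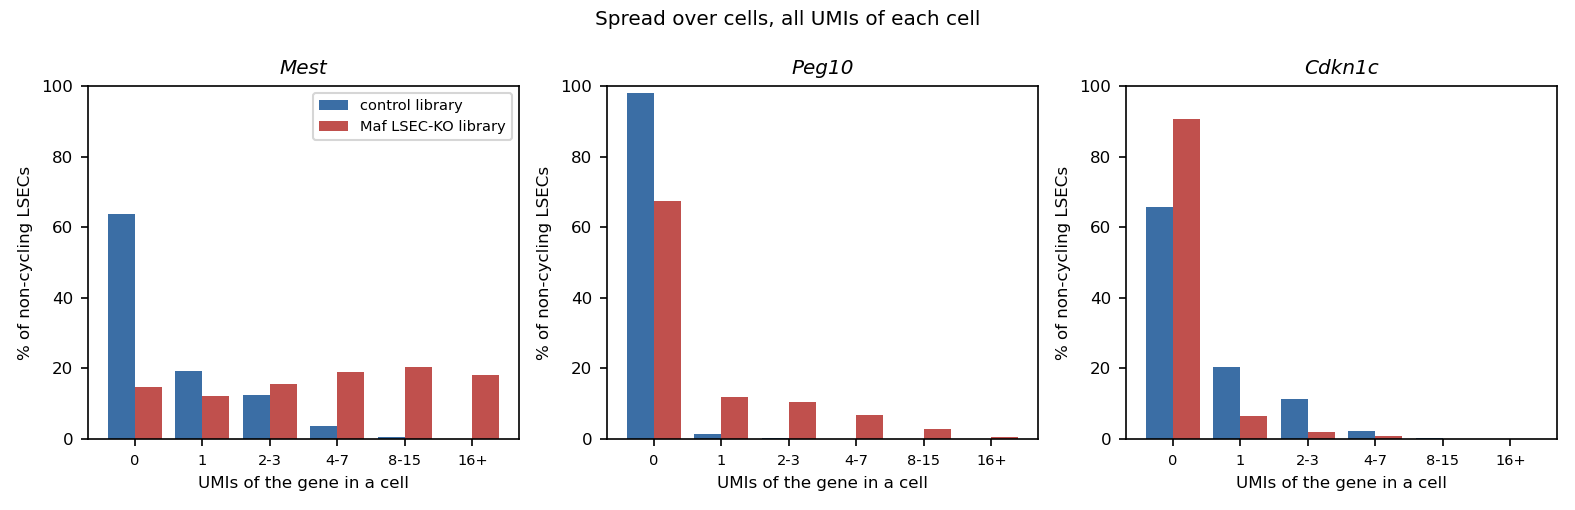
Share of non-cycling LSECs (percent) by the number of UMIs of Mest, Peg10 and Cdkn1c in the cell, before thinning, for the control (blue) and the KO (red) library. Cells without a Mest UMI make up 63.9% of control and 14.7% of KO LSECs.

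Igf2 and H19 were low and uneven. Igf2 had 23 UMIs in 7 control LSECs (0.735 CPM) and 58 UMIs in 27 KO LSECs (2.25 CPM), 3.06-fold [1.86 to 5.20]. H19 had 0 UMIs in control LSECs, which allows up to 0.0959 CPM, and 63 UMIs in 16 KO LSECs (2.44 CPM). The conditional interval of this ratio, taken against the 0 control UMIs, starts at 20.1-fold. The ratio to a floor of 3 UMIs over the control class was 25.5-fold. Without the richest KO cell the log2 ratio to that floor was 4.19. Both remained the RNA of few cells: a UMI of Igf2 was found in 1.09% and of H19 in 0.646% of KO non-cycling LSECs, and 1 cell held 18 of the 63 H19 UMIs. In lymphocyte-like cells of the KO library each had 1 UMI in 99 cells, 1.01% of cells, so at this depth the LSEC shares lie within the interval of the background share. The UMIs per cell differ, with 63 H19 UMIs in 16 LSECs.

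Most H19 lay outside the LSEC class. In Vwf-positive non-cycling endothelial cells H19 had 0 UMIs in 159 control cells and 150 UMIs in 958 KO cells (12.6 CPM [10.7 to 14.8]), of which 1 cell held 39 and 2 cells 50%, and Igf2 0 and 78 UMIs (6.56 CPM [5.18 to 8.18]). Over all endothelial-like cells, 0 of 4241 control and 44 of 4389 KO cells held H19, and 8 and 64 held Igf2. A cluster of 389 KO endothelial cells led by Gja5, Npr3 and Nrg1 (Gja5 encodes an arterial gap junction protein) held 57.8% of the endothelial H19 UMIs, 160 UMIs in 19 cells, and had 32.9 CPM. A further 101 H19 UMIs lay in 16 cells of the cluster led by Astn1. A Vwf UMI was found in 16 of the 19 H19 cells of the Gja5-led cluster and in 7 of the 16 of the Astn1-led one. Of the 44 KO endothelial cells with H19, 6 also held Igf2, 13.6% [5.17 to 27.4], against 58 of the 4345 without H19, 1.33% [1.02 to 1.72], at medians of 15542 and 14242 UMIs per cell. At this depth an absent UMI does not show an absent transcript.

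Dlk1 was not detected in LSECs: 0 UMIs in control, which allows up to 0.0959 CPM, and 0 in KO, which allows up to 0.116 CPM. Its locus partner Meg3 had 16 UMIs in 3 control LSECs and 21 UMIs in 1 KO LSEC, too few pooled for a comparison. In control, 10 of the 16 lay in 1 cell that also held UMIs of 7 of the 12 stellate markers. With cycling LSECs counted too, Meg3 UMIs lay in 3 control and 2 KO cells.

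Cdkn1c, the kinase inhibitor, was the lower member with the most UMIs. It had 2392 UMIs, or 76.5 CPM [73.4 to 79.6], in control and 478 UMIs, or 18.5 CPM [16.9 to 20.3], in KO, a log2 difference of -2.04 [-2.19 to -1.90], or 4.12-fold lower. A UMI was found in 34.1% of control and 9.37% of KO cells, and after thinning in 15.8% and 2.81%. The background shares moved the same way, from 11.5% to 3.03% of lymphocyte-like cells, or 5.63% and 2.11% after thinning. In KO the thinned LSEC share was thus close to the background share. The background levels were lower in KO too, at 51.8 and 7.80 CPM in lymphocyte-like and 22.6 and 3.93 CPM in macrophage-like cells. The part of this background in the LSEC difference was not tested. One KO LSEC held 49 of the 478 UMIs, and without the richest cell of each library the log2 difference was -2.18.

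Peg3 was lower by the same rule, on few UMIs: 95 in 72 control LSECs (3.04 CPM) and 23 in 5 KO LSECs (0.893 CPM), log2 -1.77 [-2.49 to -1.10]. In control lymphocyte-like cells, the background used here, Peg3 was at 4.85 CPM, on 3 UMIs in 2 of 78 cells. The control LSEC level thus did not stand above that background. The KO lymphocyte-like cells had 0 Peg3 UMIs in 99 cells. Control macrophage-like and neutrophil/monocyte-like cells also had 0 Peg3 UMIs, in 225 and 41 cells. Of the 23 KO UMIs, 17 lay in 1 cell, which also held all 21 Meg3 UMIs and UMIs of 2 stellate markers. Without the richest cell of each library the log2 difference was -3.64. Without the 4 clusters led by haemoglobin, hepatocyte or platelet genes it was -0.83 and no longer past 2-fold. Stellate markers moved with Peg3 between the libraries, with all 12 detected in both and a sum of 122 CPM in control and 49.6 CPM in KO non-cycling LSECs. Leaving out LSECs with UMIs of at least 2 stellate markers also removes the cell with 17 Peg3 UMIs, and gave -3.64 as well.

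Plagl1 and Grb10 were close in the libraries. Control cells had Plagl1 at 18.1 CPM [16.6 to 19.6] and KO cells at 27.2 CPM [25.3 to 29.3], log2 0.59 [0.43 to 0.76]. With cells thinned to 2700 UMIs its log2 difference was 1.07, past the 2-fold limit. Grb10 was at 62.0 CPM [59.3 to 64.8] and 54.6 CPM [51.8 to 57.6], log2 -0.18 [-0.28 to -0.08]. That small difference turned to 0.06 without the 4 clusters led by blood, hepatocyte or platelet genes. Grb10 had a UMI in 32.5% of control and 35.6% of KO LSECs, against 19.2% and 7.07% of lymphocyte-like cells. After thinning the LSEC shares were 12.2% and 10.4%, and the lymphocyte-like shares 5.63% and 3.16%.

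Other markers also differed between the non-cycling LSECs of the libraries. Summed haemoglobin genes, all 4 detected in both, were at 139 CPM in control and 13.4 CPM in KO, 6 hepatocyte markers at 84.6 and 50.9 CPM, and 7 macrophage markers at 42.3 and 79.2 CPM. The 4 mesothelial markers were at 13.3 and 69.9 CPM, and the 12 cell cycle genes, in cells below the cycling limit, at 22.7 and 78.4 CPM. The part of the macrophage, mesothelial and cell cycle RNA in the members' differences was not tested. Without the clusters led by blood, hepatocyte or platelet genes, the log2 difference was 4.48 for Peg10, 2.91 for Mest, 2.53 for Igf2 and -1.69 for Cdkn1c. Each of these 4 calls stayed on its side of the limit with 2968 control and 1460 KO cells left.

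In the KO library, the cycling LSECs carried the higher Mest and Peg10 of the non-cycling ones. Of 7 members compared between cycling and non-cycling KO LSECs, 0 were higher, against 4.97% of 11988 genes, and 3 were lower, against 1.49%: Cdkn1c, Igf2 and H19. Cdkn1c was at 8.47 CPM [7.02 to 10.1] in cycling and 18.5 CPM in non-cycling cells, log2 -1.13 [-1.43 to -0.84]. Igf2 (13 against 58 UMIs, log2 -1.28 [-2.27 to -0.40]) and H19 (2 against 63 UMIs) rest on few molecules. Mest was at 893 CPM [877 to 909] and 817 CPM, log2 0.13, and Peg10 at 139 CPM [133 to 145] and 108 CPM, log2 0.36. Plagl1 (log2 -0.33) and Grb10 (log2 0.05) were within the limit too, and the median over the 7 members was -0.33 against -0.02 over all genes. With the cells thinned, 1 member with enough UMIs, Cdkn1c (log2 -1.87), was past the limit, and Igf2 was at -0.17 and H19 at -1.47 on fewer UMIs. With Vwf-positive cells included, H19 was at -0.77 and no longer past the limit, and without doublet removal Cdkn1c was at -0.97. With cycling set at 2 of the 12 genes after thinning, Cdkn1c was at -0.88 and Igf2 at -0.89, both within the limit.

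In control, where only 83 LSECs were cycling, 2 of 6 members were higher in cycling cells, against 8.20% of 11385 genes, and 0 were lower, against 5.39%. Peg10 was at 16.9 CPM [10.1 to 26.3] on 19 UMIs in cycling cells against 3.45 CPM, log2 2.29 [1.5 to 3.0]. The other, Peg3, rests on 7 UMIs with an interval of -0.32 to 2.13 that includes no difference, and without the richest cell of each class it was at 0.61. Mest was at 169 CPM [145 to 194] against 91.3 CPM, log2 0.89 [0.67 to 1.10]; 1 cycling cell held 34 of the 190 UMIs, and without the richest cells the ratio was 0.61. Cdkn1c was at 56.8 CPM [43.7 to 72.5] against 76.5 CPM, log2 -0.43. With the cells thinned, Peg10 (log2 2.82) and Peg3 (log2 1.06) fell under the 50 pooled UMIs that a call needs. The median was 0.67 over the members and 0.02 over all genes.

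The difference between libraries was also present within cycling LSECs. Of 5 members with enough UMIs, 2 were higher in KO, against 10.3% of 10746 genes, and 1 lower, against 4.86%. With UMIs of all genes as the scale these shares were 7.34% and 7.77%, and the 3 members kept their calls. Mest was 5.30-fold higher, log2 2.41 [2.20 to 2.62], and Peg10 8.24-fold higher, log2 3.04 [2.40 to 3.78], or 2.35 with cells thinned. Cdkn1c was lower, at 8.47 CPM against 56.8 CPM, log2 -2.74 [-3.19 to -2.28]. Plagl1 (log2 -0.19) and Grb10 (log2 -0.01) were within the limit, and the median was -0.01 over the members against 0.06 over all genes.

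Some KO LSECs still held Maf RNA, which allows a comparison within 1 library. Non-cycling KO LSECs with at least 5 Maf UMIs were 185, of which 165 (89.2%) fell in the cluster led by Dnase1l3 and Maf, and 1952 had none. Of 7 members compared, 1 was higher in the cells with Maf, Cdkn1c, against 4.15% of 11098 genes. Lower were 3, Peg10, Mest and Igf2, against 8.70%. With UMIs of all genes as the scale the shares were 5.97% higher and 6.55% lower, and Igf2 was within the limit. Mest was at 298 CPM [273 to 325] with Maf and 847 CPM [834 to 860] without, log2 -1.51 [-1.64 to -1.38]. With the limit set at 2 Maf UMIs the ratio of Mest was -0.66, no longer past 2-fold, and that of Peg10 -1.23. Peg10 was at 25.0 CPM [18.1 to 33.7] and 114 CPM [109 to 118], log2 -2.18 [-2.65 to -1.75]. Cdkn1c was at 48.4 CPM [38.5 to 59.9] and 16.9 CPM [15.2 to 18.9], log2 1.51 [1.15 to 1.86]. One cell held 31 of its 83 UMIs in the cells with Maf and 3 cells held 50% of them; without the richest cell of each side it was at 30.3 and 14.5 CPM, log2 1.07. All 3 lay between the control level and that of KO cells without Maf. The clusters of these cells moved with the split, so cluster and Maf cannot be told apart for most of them; among Astn1-led cells, Mest was at 304 CPM [199 to 446] in 11 cells with Maf and 835 CPM [814 to 856] in 856 cells without. In the same cluster Peg10 was at 70.2 CPM [25.8 to 153] and 90.5 CPM [83.7 to 97.6], and Cdkn1c at 81.9 CPM [32.9 to 169] and 18.97 CPM [15.9 to 22.4]. In the Hbb-bs-led cluster 5 cells with Maf had Mest at 572 CPM [427 to 751] and 818 without at 927 CPM [908 to 946], while Peg10 was at 132 CPM [68.3 to 231] and 143 CPM and Cdkn1c at 0 UMIs and 13.9 CPM. These are values of 11 and 5 cells, and the intervals leave out the spread between cells, which was wide for Mest, so no difference within a cluster is drawn from them. Igf2 rests on 2 UMIs in the cells with Maf, with a log2 interval of -4.20 to 0.81, and without the richest cell of each side it was within the limit, at -0.21. The median was -0.87 over the members and -0.10 over all genes. The former is the value of H19, which had 0 UMIs in the cells with Maf and 63 in those without. It is thus a bound, the ratio of a floor of 3 UMIs.

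The steps between were not even. In KO cells with 1 Maf UMI Mest was at 877 CPM and with 2 to 4 at 911 CPM, like the cells with none, and it was at 340 CPM with 5 to 9 and 291 CPM with 10 or more. Cdkn1c followed the same break, at 14.7 and 12.03 CPM with 1 and with 2 to 4 Maf UMIs, and at 53.2 and 47.5 CPM above that. These last 2 levels rest on 13 UMIs in 37 cells and on 70 UMIs, of which 1 cell held 31. Peg10 was at 127, 85.2, 40.9 and 22.4 CPM with 1, 2 to 4, 5 to 9 and 10 or more Maf UMIs. For Mest and Cdkn1c, cells with 1 to 4 Maf UMIs were thus close to cells without. Peg10 lay on both sides of its level in cells with none, 114 CPM [109 to 118]. It was at 127 CPM [115 to 140] with 1 and 85.2 CPM [68.7 to 104] with 2 to 4 Maf UMIs. These intervals leave out the spread between cells, so no difference is drawn from them. Maf UMIs were found in 19.2% of the lymphocyte-like cells of this library. Control LSECs with 10 or more Maf UMIs had Mest at 93.4, Peg10 at 3.54 and Cdkn1c at 74.5 CPM.

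**Figure D4:**
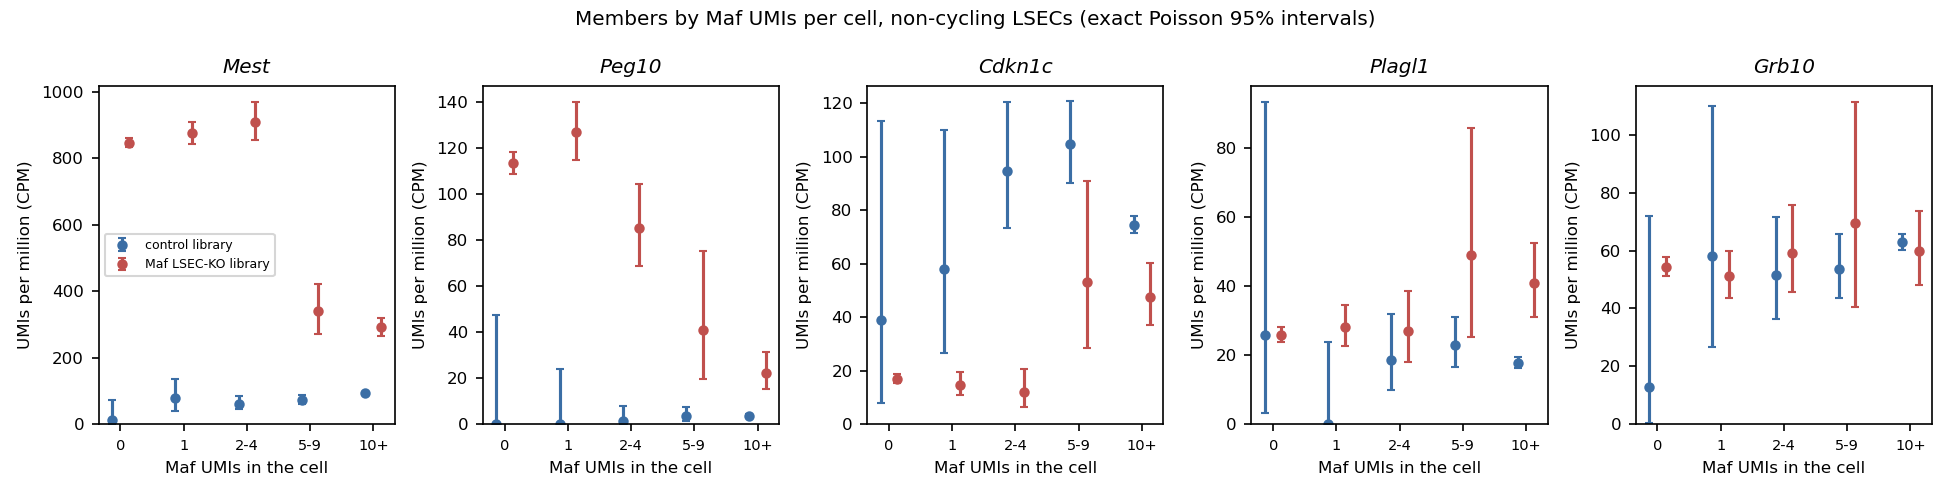
Level (CPM, linear axis from 0) of Mest, Peg10, Cdkn1c, Plagl1 and Grb10 in non-cycling LSECs by the number of Maf UMIs in the cell, for the control (blue) and KO (red) library, with exact Poisson 95% intervals. In the KO library Mest is at 911 CPM with 2 to 4 Maf UMIs and at 340 CPM with 5 to 9, while the Grb10 intervals of the libraries overlap at each number of Maf UMIs.

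Within the KO endothelium the members differed by cluster. The clusters were made from all genes, the members included, so these values are a description. Mest was at 867 CPM in the Astn1-led, 929 CPM in the Hbb-bs-led and 819 CPM in the Hist1h2ap-led cluster, and at 272 CPM in the Gja5-led, 392 CPM in the Rspo3-led and 280 CPM in the Dnase1l3-led cluster. Peg10 was at 88.8, 141 and 113 CPM in the first 3 of these and at 10.1 CPM in the Gja5-led cluster. Cdkn1c and Plagl1 had another order, with 53.3 and 62.3 CPM in the Gja5-led cluster, and in control 149 and 70.2 CPM in the cluster led by Igfbp5. The Gja5-led cluster, high in H19, Plagl1 and Cdkn1c, was thus low in Mest and Peg10, while the Astn1-led cluster had H19 at 6.93 CPM with the high Mest and Peg10 given above. Peg3 was at 15.6 CPM in the Rspo3-led KO cluster, where 16 of 146 cells held it, against 0.893 CPM in KO LSECs. Its 101 CPM in the Sparcl1-led cluster of 20 cells came from 19 UMIs in 2 cells, 17 of them in the cell named above.

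In the Vwf-positive non-cycling endothelial cells outside the LSEC class, Mest, Peg10 and Cdkn1c had the same directions as in LSECs. Mest was at 105 CPM in control and 590 CPM in KO, Peg10 at 0.599 CPM (1 UMI) and 40.5 CPM, and Cdkn1c at 81.5 and 32.4 CPM. Plagl1 was at 54.5 CPM [43.9 to 66.9] and 41.7 CPM [38.1 to 45.5], and Grb10 at 66.5 and 74.0 CPM, so the signs of these small differences were opposite to those in LSECs. The sets compared differ in make-up, since 159 control and 958 KO cells held a Vwf UMI, and Vwf differed with the condition.

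**Figure D5:**
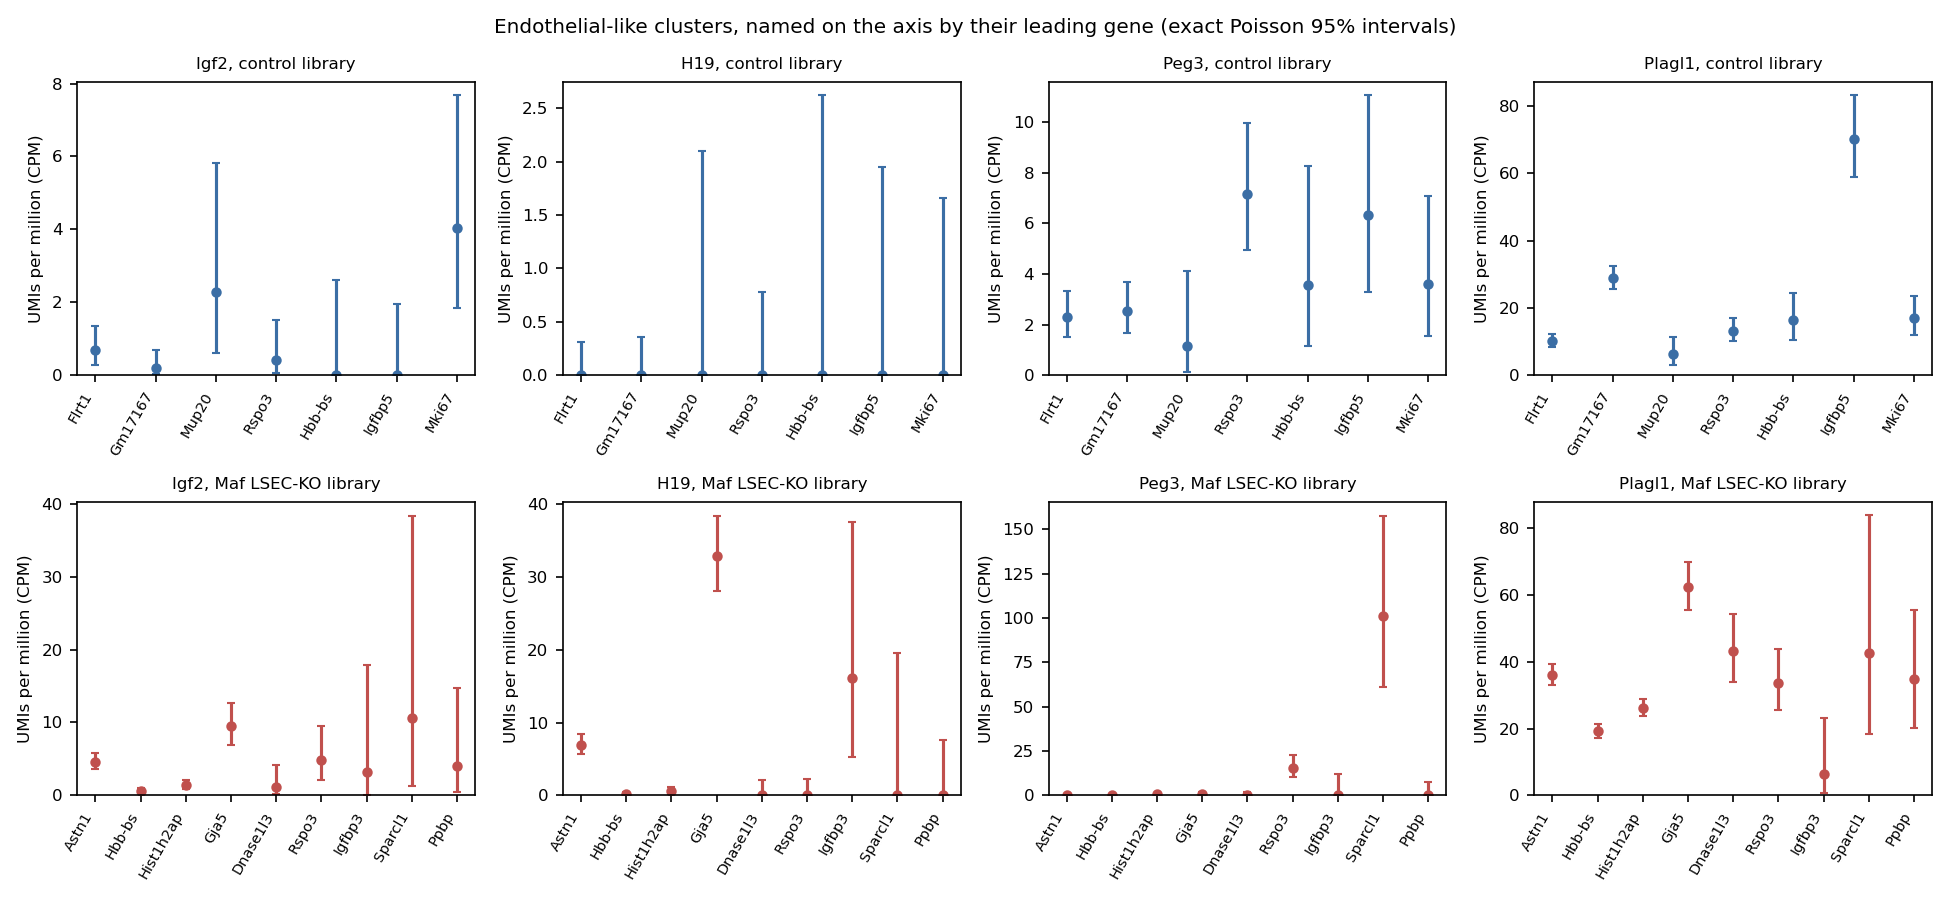
Level (CPM, linear axis from 0 that differs between panels) of Igf2, H19, Peg3 and Plagl1 in the endothelial-like clusters of the control (top, blue) and KO (bottom, red) library, each named by its leading gene, with exact Poisson 95% intervals. H19 is highest in the Gja5-led KO cluster (32.9 CPM) and at 0 in every control cluster.

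A small cluster led by Dcn, which encodes the matrix proteoglycan decorin, gave 9 cells in control and 25 in KO. In control 4 of its 10 leading genes are stellate cell markers. The KO cluster stays unnamed, since its 10 leading genes hold 3 smooth muscle, 2 stellate and 1 mesothelial marker, and it had 14195 CPM of stellate, 4071 CPM of smooth muscle, 2166 CPM of mesothelial and 4783 CPM of endothelial markers. Against non-cycling LSECs of the same library, 3 of 8 members were higher in the Dcn-led KO cells, against 11.0% of 11566 genes, and 1 lower, against 11.2%. The median log2 ratio was 0.53 over the members and -0.09 over all genes.

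Meg3 stood apart, with 101 UMIs in 14 of the 25 cells (195 CPM [159 to 237]) against 0.815 CPM in LSECs, log2 7.90 [7.21 to 8.66]. The LSEC level is that of the 1 cell with 21 UMIs; without the richest cell of each class Meg3 was at 141 CPM in the Dcn-led cells and had 0 UMIs in LSECs. Its neighbour Dlk1 had 1 UMI. Peg3 had 11 UMIs in 7 cells (21.2 CPM [10.6 to 38.0]) against 0.893 CPM, with too few UMIs pooled for a comparison. Cdkn1c was at 56.0 CPM [37.5 to 80.4] against 18.5 CPM, log2 1.59 [1.0 to 2.13], whereas in control it was at 37.5 CPM [12.2 to 87.6] on 5 UMIs in the Dcn-led cells and 76.5 CPM in LSECs. Igf2 rests on 3 UMIs in 1 cell, with a log2 interval of -0.96 to 2.98, and H19 had 0 UMIs, which allows up to 5.79 CPM.

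Peg10 and Mest were not richer in the Dcn-led cells. Peg10 was at 38.6 CPM [23.6 to 59.6] against 108 CPM in KO LSECs, log2 -1.49; 1 cell held 8 of the 20 UMIs, and without the richest cell of each class the ratio was -2.20. Mest was at 490 CPM [432 to 554] against 817 CPM, log2 -0.74; 1 cell held 71 of its 254 Mest UMIs, and without the richest cell of each class Mest was past the limit, at -1.20. These cells also carried endothelial marker RNA, whose part in these levels was not tested. In the 9 control Dcn-led cells, too few for a comparison, Meg3 had 12 UMIs (90.1 CPM [46.6 to 157]), Peg3 8 UMIs (60.1 CPM [25.9 to 118]), Plagl1 8 UMIs (60.1 CPM, against 18.1 CPM in control LSECs), Grb10 8, Cdkn1c 5, Mest 5, Peg10 1, Igf2 1, and H19 and Dlk1 0. Meg3 and Peg3 were thus the members whose intervals in the Dcn-led cells lay above their LSEC intervals in both libraries.

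Of 28 further imprinted genes, 11 had enough UMIs in non-cycling LSECs. In the KO library 2 of them were higher, against 10.8% of all genes, and 0 lower, with a median log2 ratio of 0.54. The 2 are non-coding RNAs that silence neighbouring imprinted genes in cis. Kcnq1ot1, which acts on the domain of Cdkn1c, was at 142 CPM in control and 316 CPM in KO, log2 1.16 [1.11 to 1.21]. Airn, which acts on the Igf2r domain, was at 1.18 and 7.92 CPM, log2 2.74 [2.23 to 3.29]. Igf2r, the receptor that clears IGF2, was at 17.7 CPM [16.2 to 19.2] and 31.2 CPM [29.0 to 33.4], within the limit. Of 9 receptors and partners of IGF and insulin signalling, 6 had enough UMIs. Of these, 2 were higher, against 10.8% of all genes, and 0 lower, against 5.33%. Their median was 0.80, against 0.12 over all genes. They were the RNA-binding proteins Igf2bp2 (9.24 and 29.6 CPM, log2 1.68) and Igf2bp3 (2.43 and 5.12 CPM, log2 1.08). With UMIs of all genes as the scale, 1 gene of each list was past the limit, Airn and Igf2bp2. Kcnq1ot1 and Igf2bp3 were then within it.

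The genes whose level followed a member most closely over 15 cell classes of both libraries were listed by Pearson's r of log2(CPM + 5), as a description over classes that share libraries and depth. For Mest they were Phlda3 (r = 0.954), Ldha and Xaf1. For Peg10 they were Gm45231 (r = 0.938), Pcp4l1 and Tmem255a. For Cdkn1c they were Osmr (r = 0.928), Mir100hg and Khdrbs3, and for Grb10 Rbpms (r = 0.977), Nfib and Tead1. For H19 they were Sema3g (r = 0.964), Gm33206 and Dkk2, for Igf2 Serp2 (r = 0.863), Atp1b2 and Foxc2, and for Plagl1 Sox13 (r = 0.874), Mapk3 and Pde4d. For Meg3 they were Adamtsl2 (r = 0.999), Lum and Col6a1, and for Peg3 Kazald1 (r = 0.957), Tcte2 and Pkp2. Mest and Peg10 were thus not in each other's 3 closest genes, nor were H19 and Igf2. The r values of Meg3 and H19 rest largely on 1 class each. These are the Dcn-led KO cells for Meg3 (195 CPM) and the Vwf-positive KO cells for H19 (12.6 CPM).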

How the data were processed

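Hepatic endothelial cells were profiled in 1 control and 1 Maf LSEC-KO library, each pooled from 3 mice. The deposited values are raw UMI counts per gene and barcode, which the authors made with Cell Ranger 6.0.2 against mm10. The correction for empty droplets that the study describes is not in these counts, so free RNA was not removed.

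Barcodes entered with 1500 or more UMIs and 750 or more genes. Scrublet (scanpy 1.11.5, Python 3.11.15) called 0 doublets by its own threshold in either library, so the highest scores were removed at the expected rate, 4.531% (225 barcodes) in control and 5.673% (308) in KO. Each library was clustered with Seurat 5.3.0 (R 4.3.3, resolution 0.3, 16 and 20 components), and clusters were named from fixed marker lists, so names may differ from those of the study. Cells of unnamed or hepatocyte clusters (99 in control, 70 in KO) were left out. UMIs were summed per class and scaled to CPM without mitochondrial and ribosomal protein genes (114 genes). Genes with at least 50 pooled UMIs were compared, and a ratio of at least 2-fold was called. With 1 library per group no test was made, and the intervals cover counting error only (SciPy 1.17.1). A class with 0 UMIs was given a floor of 3 UMIs. Shares of cells were also computed after thinning to 2700 UMIs. The ratio, interval and call steps were tested on simulated counts. Thinning was checked on cells of the KO library, to leave each with 2700 UMIs.

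All 10 members are named, with genes of 2 further lists that were past 2-fold with an interval leaving out no difference, Maf and the marker lists as checks, and the 3 genes closest to each member of at least 100 UMIs over classes of at least 20 cells. The members and lists were chosen with earlier results of these data known. Alternatives covered the scale (all genes, TMM of edgeR 4.0.16, median of ratios), the minimum of UMIs, thinning, doublets and the definition of each class.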

Additional observations from a re-analysis of the deposited data

Results flagged for a closer look

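Some members had UMIs in cells that are not endothelial, above the level in the same class of the control library. Peg10 was at 25.4 CPM in KO lymphocyte-like cells (13 UMIs in 4 of 99 cells) and at 0 in control. Mest was at 131 CPM in the KO lymphocyte-like cells and 56.6 CPM in the control ones, and 30 of the 67 KO UMIs lay in 1 cell. In macrophage-like cells Peg10 was at 14.0 CPM in KO and 1.33 CPM in control, and Mest at 97.3 and 37.9 CPM. Mest was at 73.6 CPM in neutrophil/monocyte-like cells of the KO library and had 0 UMIs in the 41 control cells. All these levels lay below those of KO LSECs, 108 CPM for Peg10 and 817 CPM for Mest, and the part of free RNA and of doublets in them was not tested. Cdkn1c and Grb10 went the other way. Lymphocyte-like cells had Cdkn1c at 51.8 CPM in control and 7.80 CPM in KO, and Grb10 at 45.3 and 13.7 CPM. Macrophage-like cells had Cdkn1c at 22.6 and 3.93 CPM, and Grb10 at 18.6 and 8.73 CPM.

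Peg3 was found in cholangiocyte-like cells, at 86.0 CPM [62.2 to 116] in the KO library (43 UMIs in 17 of 36 cells) and 21.4 CPM [9.23 to 42.1] in control (8 UMIs in 5 of 43 cells). The control cholangiocyte-like cells carried endothelial RNA, with each of 14 endothelial markers in at least 50% of cells. No other named class reached 86.0 CPM of Peg3.

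For Plagl1 and Grb10 the ratio of cycling to non-cycling LSECs had opposite signs in the libraries. For Plagl1 the log2 ratio was -0.33 [-0.53 to -0.13] in KO and 0.46 [-0.14 to 1.01] in control, where it was -0.01 without the richest cell of each class. For Grb10 it was 0.046 [-0.08 to 0.17] in KO and -0.13 [-0.51 to 0.23] in control, intervals that both include no difference. The difference between libraries was not tested, and neither gene was past 2-fold.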

How the results depend on the processing

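No paired analysis was possible because each condition has 1 library. In non-cycling LSECs, Mest, Peg10, Igf2, H19 and Cdkn1c stayed past 2-fold in the same direction under each of 16 alternatives, with log2 ratios of 2.91 to 3.21, 4.48 to 5.04, 1.21 to 2.53, 3.97 to 5.96 (the ratio to the floor of 3 UMIs) and -2.34 to -1.69. Peg3 ranged from -3.64 to -0.83. The count of lower members was 1 after thinning to 2700 UMIs, where fewer genes keep 50 UMIs, and 1 without the clusters led by blood, hepatocyte or platelet genes, an alternative chosen after seeing the data. Of the other imprinted genes, the number past the limit was 1 with UMIs of all genes as the scale, 6 with no minimum of UMIs and 4 after thinning, against 2. Of the IGF and insulin partners it was 1 with UMIs of all genes, TMM factors or the median of ratios. Those scales moved the shares of all genes to 8.60% higher and 7.17% lower, 8.99% and 6.67%, and 9.15% and 6.50%.

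Between cycling and non-cycling KO LSECs, 1 member, a lower one, was past the limit after thinning, and 1 with cycling set at 2 of 12 genes after thinning, against 3. In control, 1 member was higher with TMM factors, without doublet removal, with cycling set at 5 of 12 genes, or where the interval also had to leave out no difference, and 0 after thinning, against 2; there the members fell under 50 pooled UMIs, while the log2 ratio of Peg10 stayed at 2.02 to 2.82 over 12 alternatives. Between libraries in cycling LSECs, the lower members were 2 with no minimum of UMIs and 0 after thinning, against 1, where Cdkn1c fell under 50 pooled UMIs while its log2 ratio stayed at -3.01 to -2.38 over 12 alternatives. Between the Dcn-led cells and LSECs, the lower members were 2 with the mean of CPM per cell, and 1 was higher and 2 lower after thinning. Without the richest cell of each class, Mest (log2 -1.20) was also lower past the limit in the Dcn-led comparison. Peg3 (log2 0.61) was then no longer past it between cycling and non-cycling control LSECs. Of the remaining counts of members none changed by more than 1.5 times, and no ratio of a member that was past the limit changed sign. The shares over all genes moved further. With no minimum of UMIs they were 13.03% higher and 6.78% lower between libraries in non-cycling LSECs, and in cycling LSECs 7.20% and 6.95%. With the mean of CPM per cell the lower share was 2.38% between cycling and non-cycling KO LSECs, 8.48% in control and 18.7% between Dcn-led cells and LSECs. With cells thinned the lower share was 8.97% in the control cycling comparison, and with Vwf-positive cells included 2.33% in the KO one. With the limit at 2 Maf UMIs the shares were 2.46% higher and 3.04% lower. Depth limits Igf2, H19, Peg3, Meg3 and Dlk1, which rest on at most 95 UMIs in any LSEC class, and the control cycling (83 cells) and Dcn-led (9 cells) classes. Leaving out the richest cell of each class was an alternative chosen after seeing the data.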

Other observations

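Grb10 was higher in cholangiocyte-like cells than in non-cycling LSECs of the KO library, at 106 CPM [79.4 to 139] in 36 cells against 54.6 CPM in non-cycling LSECs, and at 80.1 CPM [54.1 to 114] in 43 control cells against 62.0 CPM, where the interval of the former includes the latter. In KO endothelial clusters led by Igfbp3 (39 cells) and Sparcl1 (20 cells) it was at 180 CPM [136 to 234] and 128 CPM [81.8 to 190]. Mest went the other way, at 22.003 CPM [10.98 to 39.4] in the KO cholangiocyte-like cells against 817 CPM in LSECs.

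Asb4, the imprinted neighbour of Peg10 that encodes part of a ubiquitin ligase, was past 2-fold higher in KO than control cycling LSECs, with Kcnq1ot1 and Airn, so 3 of 10 further imprinted genes compared there were higher and 0 lower, against 10.3% and 4.86% of all genes. Airn was lower in KO LSECs with at least 5 Maf UMIs than in those with none, as 1 of 10 further imprinted genes compared, a share near the 8.70% of all genes that were lower there.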
